A study of Mus musculus with 12 samples.

Results

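The 50 genes described here encode the machinery that copies DNA and divides the cell, 20 acting around S phase and 30 in mitosis. They were taken from a list of symbols, and each symbol was matched to the Ensembl gene ID that carried the most reads. All 50 were found among the 56941 gene IDs of the count table, and all 50 passed the filter on low counts, which kept 20034 genes. RNA came from the mandibular lymph nodes of mice, which drain parts of the head, and the study asked how miR-451a, a microRNA best known from red blood cells, bears on the delayed-type hypersensitivity reaction to the hapten 1-fluoro-2,4-dinitrobenzene (DNFB). All animals were sensitized with 100 µl of 0.5% DNFB on the shaved abdomen on days 0, 1 and 2, so no group was free of DNFB. The sensitized groups, WT_se (wild type) and KO_se (miR-451a KO), gave their nodes on day 9. The challenged groups, WT_DTH and KO_DTH, also received 20 µl of 1% DNFB on the left ears on day 9 and gave their nodes 24 hours later, on day 10. Each of the 4 groups had 3 libraries. The sources used here give no strain, sex or age, do not describe the allele, and leave unsaid whether a group's libraries were made from different mice. The p-values below therefore rest on library-to-library spread, which may be technical. Challenge cannot be told apart from the extra day before harvest.

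Total counts ran from 36.9 to 58.4 M per library. Markers of lymphocytes were present in every library, with Ptprc, the leukocyte surface phosphatase CD45, at 1356 to 1890 CPM (counts scaled to the size of each library), while the stromal chemokines Ccl19 (0 to 1.18 CPM) and Ccl21a (1.35 to 18.6 CPM) were low. Transcripts of the neighbouring salivary gland were present too. A list of 20 salivary genes took 7.06 to 14.5% of counts in WT_se, 2.08 to 3.38% in WT_DTH, 2.85 to 6.87% in KO_se and 4.17 to 9.57% in KO_DTH. Mitochondrially encoded genes took 14.0 to 19.4%, 4.53 to 6.02%, 12.2 to 16.3% and 5.75 to 16.0% in the same order. miR-451a itself was not analysed here, so the knockout label was not checked against its target.

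Cells that commit to division first switch on genes for S phase, when origins of replication are loaded with the MCM helicase and DNA is copied, and later the genes of G2 and mitosis, when chromosomes are condensed, attached to the spindle and pulled apart. The first wave is known to be driven by E2F factors bound near the start site. The second is known to be driven by B-Myb and FoxM1 with the MuvB complex at a cell cycle homology region (CHR), often beside CCAAT boxes bound by NF-Y. In lymph nodes these genes mark clonal expansion of antigen-activated T cells and the dividing B cells of germinal centres.

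The split between the waves could be seen in the members' promoters. RefSeq promoters of build GRCm38.p6, an older build than the GRCm39 named for the count table, were found for 42 of the 50 members (46 promoters, each 250 bases before to 50 after the start site) and searched on both strands. An E2F site, spelled TTCCCGC or TTGGCGC or TTCGCGC or TTGCCGC, stood in 68.4% of the 19 promoters of S phase members, in 22.2% of the 27 promoters of mitotic members and in 9.57% of all 32851 promoters in the table. A CHR, spelled TTTGAA or TTCGAA, stood in 10.5%, 77.8% and 19.2%, respectively. CCAAT was found in 63.2%, 77.8% and 37.4%, and a CHR together with CCAAT in 10.5%, 70.4% and 7.52%. No E2F word contains a CHR or CCAAT word. A match describes the letters of these windows and says nothing of binding in these nodes.

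The 150 bases before the start site are shown for Uhrf1 and Rrm1, the S phase members carrying an E2F site, and for Kif11 and Cdk1, the mitotic members carrying a CHR and CCAAT, that had the smallest p for KO_se against WT_se in their class. Uhrf1 lies at chr17:56303187-56303336 (plus strand), Rrm1 at chr7:102441545-102441694 (plus), Kif11 at chr19:37376232-37376381 (plus) and Cdk1 at chr10:69352913-69353062 (minus). Capitals mark the E2F site in the first pair and the CHR and CCAAT in the second, where TTCAAA and ATTGG are the same words read from the other strand.
Uhrf1: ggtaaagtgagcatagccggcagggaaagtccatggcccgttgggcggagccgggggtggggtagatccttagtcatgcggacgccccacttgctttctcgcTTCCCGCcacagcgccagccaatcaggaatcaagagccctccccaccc
Rrm1: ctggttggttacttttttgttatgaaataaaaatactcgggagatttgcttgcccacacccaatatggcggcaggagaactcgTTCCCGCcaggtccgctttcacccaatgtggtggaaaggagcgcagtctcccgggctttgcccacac
Kif11: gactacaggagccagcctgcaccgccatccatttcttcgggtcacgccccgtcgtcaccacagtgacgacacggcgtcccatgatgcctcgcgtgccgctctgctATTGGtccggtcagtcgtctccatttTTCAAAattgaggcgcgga
Cdk1: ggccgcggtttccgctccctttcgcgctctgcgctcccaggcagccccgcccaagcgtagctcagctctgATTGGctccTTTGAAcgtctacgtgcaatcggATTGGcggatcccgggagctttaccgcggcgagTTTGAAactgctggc
The E2F site begins 48 bases before the start in Uhrf1 and 67 before it in Rrm1. In Kif11 the CHR begins 19 and the CCAAT 45 bases before the start. Cdk1 has CHR words at 71 and 15 bases and CCAAT at 80 and 48 bases before it. Lower-case matches of the other kind remain, CCAAT in Uhrf1 and Rrm1 and an E2F word in Cdk1.

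**Figure D1:**
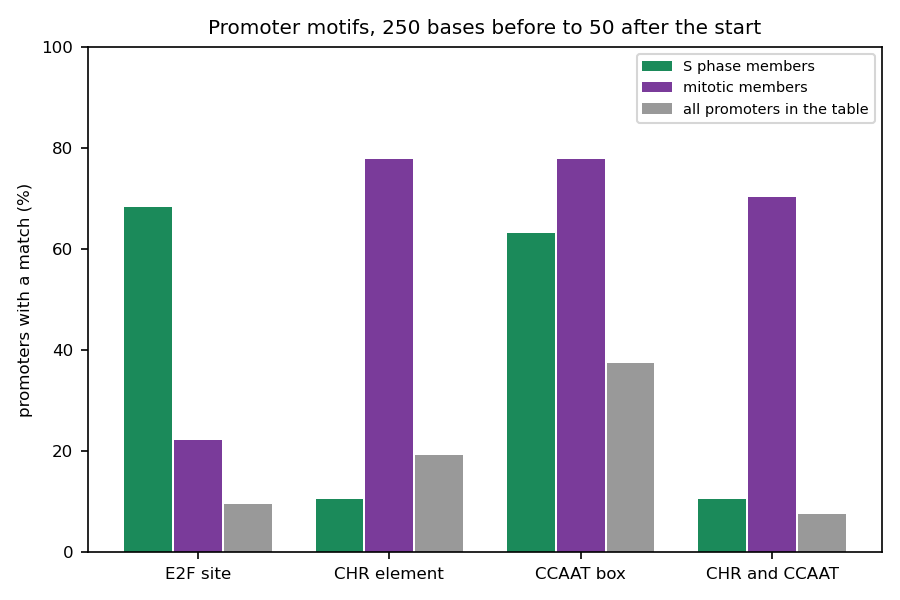
Share of promoters (percent, vertical axis) that hold each motif, for the 19 promoters of S phase members (green), the 27 of mitotic members (purple) and all 32851 in the RefSeq table (grey). E2F sites are in 68.4% of S phase promoters and CHR elements in 77.8% of mitotic promoters.

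By the mean log2 CPM of their members, both sets of genes had their lowest group mean in the sensitized wild type and their highest in the sensitized knockout, and the mitotic set covered the wider range. The S phase members together took 0.0534 to 0.0608% of counts in WT_se, 0.0883 to 0.112% in WT_DTH, 0.0911 to 0.108% in KO_se and 0.0868 to 0.106% in KO_DTH. The mitotic members took 0.0148 to 0.0280%, 0.0245 to 0.0376%, 0.0619 to 0.0783% and 0.0392 to 0.0467%. S phase shares thus overlapped among the other 3 groups, all above WT_se, whereas mitotic shares were high in KO_se, intermediate in KO_DTH and low in both wild-type groups. RNA of whole nodes was measured, so more dividing cells and more of these transcripts per cell cannot be told apart.

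The mean log2 CPM of the S phase members was 4.06 ± 0.17 in WT_se and 4.60 ± 0.25 in WT_DTH, against 4.97 ± 0.10 in KO_se and 4.83 ± 0.09 in KO_DTH (SD, n = 3 libraries each). That of the mitotic members was 2.34 ± 0.41, 2.57 ± 0.37, 4.00 ± 0.17 and 3.31 ± 0.06. The S phase mean minus the mitotic mean, a difference on the log2 scale that follows the balance of the 2 classes and carries no test here, was 1.72 ± 0.26 in WT_se and 2.04 ± 0.12 in WT_DTH, against 0.96 ± 0.08 in KO_se and 1.52 ± 0.04 in KO_DTH. All 3 KO_se libraries lay below the other 9, at 0.92 to 1.05. KO_DTH, at 1.50 to 1.56, lay below all WT_DTH libraries (1.92 to 2.16) and within the range of WT_se (1.44 to 1.94). Taken by medians over members in place of means, the distance of KO_se from WT_se in this balance was −0.48 in place of −0.76.

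**Figure D2:**
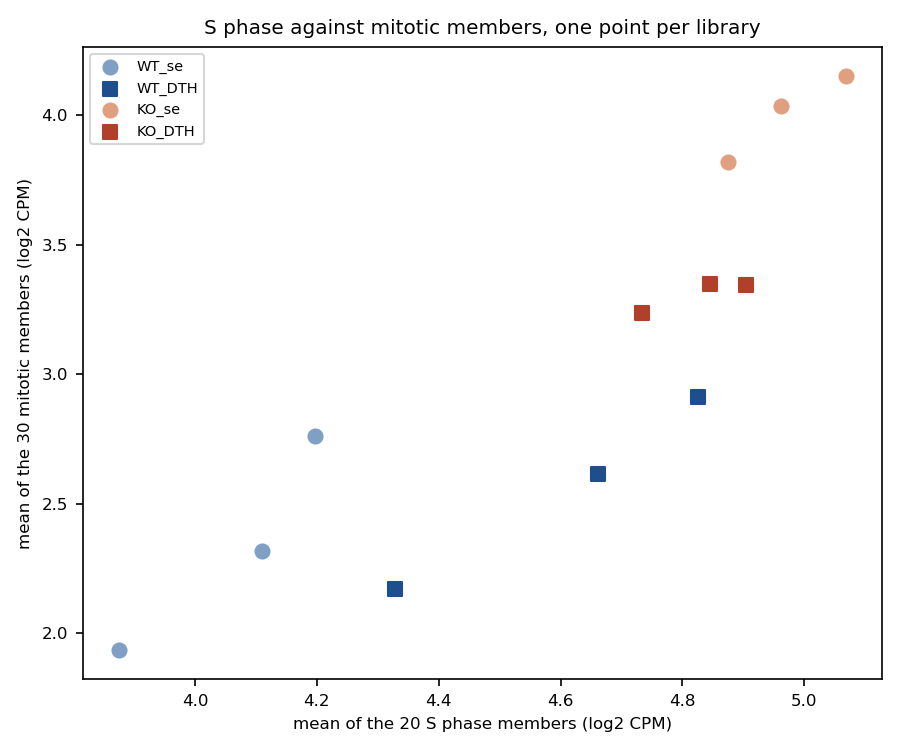
Mean log2 CPM of the 20 S phase members (horizontal axis) against that of the 30 mitotic members (vertical axis), 1 point per library. KO_se (pale red circles) sits at the top right, and KO_DTH (dark red squares) overlaps in S phase level with WT_DTH (dark blue squares) and has a higher mitotic level.

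The first comparison asked how the sensitized nodes of the knockout differed from those of the wild type. Nearly the whole division programme was higher in KO_se: 45 of 50 members rose, 28 of 30 mitotic and 17 of 20 S phase members, and none fell (edgeR quasi-likelihood test, Benjamini-Hochberg adjusted p below 0.05 over all genes). Of all genes tested 5.17% were called, 3.76% higher and 1.40% lower. The median log2 change was 1.67 over mitotic and 0.88 over S phase members, against −0.01 over all genes. Values in KO_se lay above every WT_se library for 29 mitotic and 19 S phase members, against 15.2% of all genes.

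Cdk1 (ENSMUSG00000019942), the kinase that drives entry into mitosis, stood at 2.76, 3.48 and 4.95 CPM in WT_se, 4.09, 6.42 and 7.13 in WT_DTH, 15.0, 16.8 and 20.7 in KO_se and 8.32, 11.1 and 9.28 in KO_DTH. Its KO_se libraries lay above all the others, and the KO_DTH libraries lay between them and both wild-type groups. The change from WT_se to KO_se was 2.22 ± 0.25 (adjusted p = 0.00128) on the log2 scale (± SE, as throughout), a 4.67-fold difference. The cyclins that activate Cdk1 rose as well, Ccnb1 by 2.25 ± 0.29 (adjusted p = 0.00183), Ccnb2 by 2.14 ± 0.36 (adjusted p = 0.00640) and Ccna2 by 1.86 ± 0.27 (adjusted p = 0.00281). Foxm1, a transcription factor of the mitotic wave, rose by 0.90 ± 0.20 (adjusted p = 0.0235). Melk, a kinase of the same wave, stood at 1.84, 2.76 and 3.31 CPM in WT_se, 1.48, 3.12 and 4.74 in WT_DTH, 4.50, 6.26 and 7.41 in KO_se and 4.68, 5.49 and 4.26 in KO_DTH. Its KO_se libraries all exceeded those of WT_se, but at 1.20 ± 0.36 (adjusted p = 0.0774) it did not pass.

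Of 7 mitotic kinases and checkpoint genes 6 rose. Cdc20, which activates the anaphase-promoting complex, stood at 2.65, 4.15 and 5.86 CPM in WT_se, 5.21, 5.71 and 5.06 in WT_DTH, 15.7, 15.2 and 16.0 in KO_se and 9.97, 8.99 and 10.8 in KO_DTH. KO_se was nearly uniform and above every other library, with a change of 1.88 ± 0.23 (adjusted p = 0.00148). Aurkb, Bub1, Bub1b, Ttk and Plk1 rose by 1.47 to 1.98. Aurka, the kinase of the spindle poles, was the exception, at 3.71, 4.87 and 5.90 CPM in WT_se, 4.98, 6.04 and 5.50 in WT_DTH, 5.86, 7.27 and 8.22 in KO_se and 8.22, 6.74 and 5.54 in KO_DTH. Its WT_se and KO_se libraries overlapped, and the difference of 0.56 ± 0.22 (adjusted p = 0.151) did not pass.

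All 5 kinetochore members rose. Nuf2 and Ndc80 are partners in the complex that grips spindle microtubules, and both rose. Nuf2 stood at 2.47, 3.77 and 3.26 CPM in WT_se, 2.32, 3.38 and 3.97 in WT_DTH, 9.99, 10.7 and 11.3 in KO_se and 5.53, 7.74 and 4.48 in KO_DTH, and its KO_se mean lay above WT_se by 3.36-fold, or 1.75 ± 0.26 (adjusted p = 0.00285) in log2. Ndc80 stood at 12.1, 10.8 and 10.1 CPM in WT_se, 12.9, 13.9 and 12.5 in WT_DTH, 15.4, 18.3 and 19.8 in KO_se and 10.9, 13.5 and 12.8 in KO_DTH, with all KO_se libraries above all WT_se libraries (0.70 ± 0.13, adjusted p = 0.0110). Cenpe, Cenpf and Birc5 (survivin) rose by 1.58 to 1.84.

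All 8 spindle members rose, by 1.23 (Kif23) to 2.42 (Hmmr). Kif11 (ENSMUSG00000012443), the kinesin that pushes spindle poles apart, stood at 8.20, 9.69 and 14.3 CPM in WT_se, 9.59, 10.7 and 12.9 in WT_DTH, 30.9, 32.4 and 39.3 in KO_se and 16.4, 19.4 and 18.7 in KO_DTH. WT_se and WT_DTH overlapped, KO_DTH lay above both and KO_se above all, and the difference between KO_se and WT_se was 1.67 ± 0.19 (adjusted p = 0.00128). Kif4, a chromosome-bound kinesin, stood at 4.11, 3.61 and 5.33 CPM in WT_se, 2.84, 4.81 and 5.92 in WT_DTH, 10.1, 12.3 and 13.3 in KO_se and 7.26, 7.52 and 6.02 in KO_DTH and rose by 1.45 ± 0.25 (adjusted p = 0.00733). Hmmr, a microtubule-associated protein of the spindle, rose by 2.42 ± 0.31 (adjusted p = 0.00183), the largest change among the members. In cytokinesis, Ect2 stood at 2.91, 4.98 and 3.93 CPM in WT_se, 4.07, 6.22 and 5.25 in WT_DTH, 8.67, 14.5 and 12.9 in KO_se and 8.38, 3.80 and 6.84 in KO_DTH, and Anln, which organises the contractile ring, at 1.55, 1.79 and 2.59 CPM in WT_se, 1.59, 1.82 and 2.21 in WT_DTH, 4.29, 6.67 and 5.13 in KO_se and 3.58, 2.50 and 3.61 in KO_DTH. Both were higher in every KO_se library than in any WT_se library, by 1.61 ± 0.31 (adjusted p = 0.0118) and 1.43 ± 0.28 (adjusted p = 0.0121).

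Top2a, which untangles chromosomes, and Mki67, the coat protein of mitotic chromosomes known as the Ki-67 proliferation marker, both rose. Top2a stood at 31.0, 40.3 and 59.6 CPM in WT_se, 34.9, 44.7 and 64.5 in WT_DTH, 125, 149.6 and 161 in KO_se and 82.3, 91.5 and 80.2 in KO_DTH. Mki67 stood at 28.5, 47.3 and 65.8 CPM in WT_se, 40.4, 49.3 and 62.0 in WT_DTH, 137, 162 and 159.9 in KO_se and 96.6, 83.4 and 82.9 in KO_DTH. In both, KO_se was above all other libraries and the wild-type groups overlapped, with changes from WT_se to KO_se of 1.73 ± 0.23 (adjusted p = 0.00213) and 1.69 ± 0.24 (adjusted p = 0.00234).

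S phase members had the lower median change, a difference between the classes that was not tested. Of the G1/S regulators, the cyclin E genes rose, Ccne1 by 1.08 ± 0.23 (adjusted p = 0.0181) and Ccne2 by 0.86 ± 0.21 (adjusted p = 0.0357). Ccne1 stood at 2.50, 3.13 and 2.74 CPM in WT_se, 2.96, 3.45 and 3.02 in WT_DTH, 6.09, 4.88 and 6.71 in KO_se and 6.33, 5.02 and 3.71 in KO_DTH, which set both knockout groups above both wild-type groups. E2f1, the transcription factor of the S phase wave, stood at 4.26, 2.73 and 4.59 CPM in WT_se, 5.25, 7.61 and 8.87 in WT_DTH, 7.42, 5.79 and 8.44 in KO_se and 8.02, 8.62 and 7.28 in KO_DTH. Its WT_se libraries lay below every other, and its difference of 0.90 ± 0.24 (adjusted p = 0.0513) just missed the threshold.

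Of the 6 MCM helicase subunits 5 rose, by 0.52 (Mcm2) to 0.86 (Mcm5), as did the origin loader Cdc6 (1.52 ± 0.37, adjusted p = 0.0357) and the helicase cofactor Gins2 (1.34 ± 0.32, adjusted p = 0.0319). Mcm5 stood at 33.0, 39.1 and 41.5 CPM in WT_se, 47.7, 57.6 and 65.6 in WT_DTH, 62.8, 71.0 and 72.1 in KO_se and 63.1, 72.6 and 63.3 in KO_DTH, which placed WT_se below every other library. Mcm3 stood at 40.5, 49.6 and 55.0 CPM in WT_se, 61.0, 69.9 and 79.6 in WT_DTH, 75.4, 78.4 and 85.6 in KO_se and 77.3, 86.9 and 78.5 in KO_DTH. Mcm6 stood at 56.9, 60.1 and 67.7 CPM in WT_se, 76.1, 82.4 and 107 in WT_DTH, 92.3, 86.5 and 91.7 in KO_se and 91.3, 98.3 and 101 in KO_DTH. Both had WT_se lowest as well, rising by 0.72 ± 0.12 (adjusted p = 0.00566) and 0.55 ± 0.11 (adjusted p = 0.0168). Mcm7 stood at 51.2, 62.1 and 51.5 CPM in WT_se, 50.6, 62.0 and 69.1 in WT_DTH, 71.3, 84.2 and 87.7 in KO_se and 68.7, 72.7 and 65.9 in KO_DTH, higher in KO_se than in any wild-type library (0.56 ± 0.12, adjusted p = 0.0190). Mcm4 stood at 57.5, 72.3 and 69.7 CPM in WT_se, 68.3, 91.0 and 83.0 in WT_DTH, 76.7, 83.0 and 82.2 in KO_se and 83.3, 83.8 and 85.1 in KO_DTH, and its difference of 0.28 ± 0.11 (adjusted p = 0.145) did not pass. Cdt1, which loads MCM onto origins with Cdc6, stood apart with 80.6, 68.1 and 84.0 CPM in WT_se, 119.9, 109 and 134 in WT_DTH, 88.5, 81.9 and 63.2 in KO_se and 107, 112 and 118 in KO_DTH. WT_se and KO_se overlapped and differed by 0.01 ± 0.12 (adjusted p = 0.988), while both challenged groups were higher. The sign of that Cdt1 difference changed with the scaling, to −0.016 with DESeq2 size factors.

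All 4 fork and checkpoint members and all 4 nucleotide members rose. Uhrf1, which recruits DNA methyltransferase to newly copied DNA, stood at 12.8, 16.1 and 19.1 CPM in WT_se, 19.7, 29.7 and 29.6 in WT_DTH, 41.5, 44.7 and 48.8 in KO_se and 42.5, 39.6 and 33.4 in KO_DTH. Both knockout groups lay above every wild-type library, with a difference of 1.49 ± 0.17 (adjusted p = 0.00128) between the sensitized groups. Pcna, the sliding clamp of the polymerases, rose by 0.56 ± 0.11 (adjusted p = 0.0154) and the polymerase subunit Pola1 by 0.90 ± 0.13 (adjusted p = 0.00276). Rrm1, the large subunit of ribonucleotide reductase, stood at 43.4, 42.7 and 43.1 CPM in WT_se, 41.8, 51.9 and 59.7 in WT_DTH, 70.6, 85.9 and 86.7 in KO_se and 54.6, 62.2 and 60.4 in KO_DTH and rose by 0.91 ± 0.12 (adjusted p = 0.00187), its partner Rrm2 by 1.68 ± 0.24 (adjusted p = 0.00243). Thymidylate synthase Tyms rose by 1.20 ± 0.22 (adjusted p = 0.00868). Thymidine kinase Tk1 stood at 12.1, 16.5 and 18.5 CPM in WT_se, 25.3, 22.8 and 33.0 in WT_DTH, 26.2, 33.2 and 23.0 in KO_se and 28.6, 26.7 and 31.1 in KO_DTH and rose by 0.80 ± 0.18 (adjusted p = 0.0245).

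**Figure D3:**
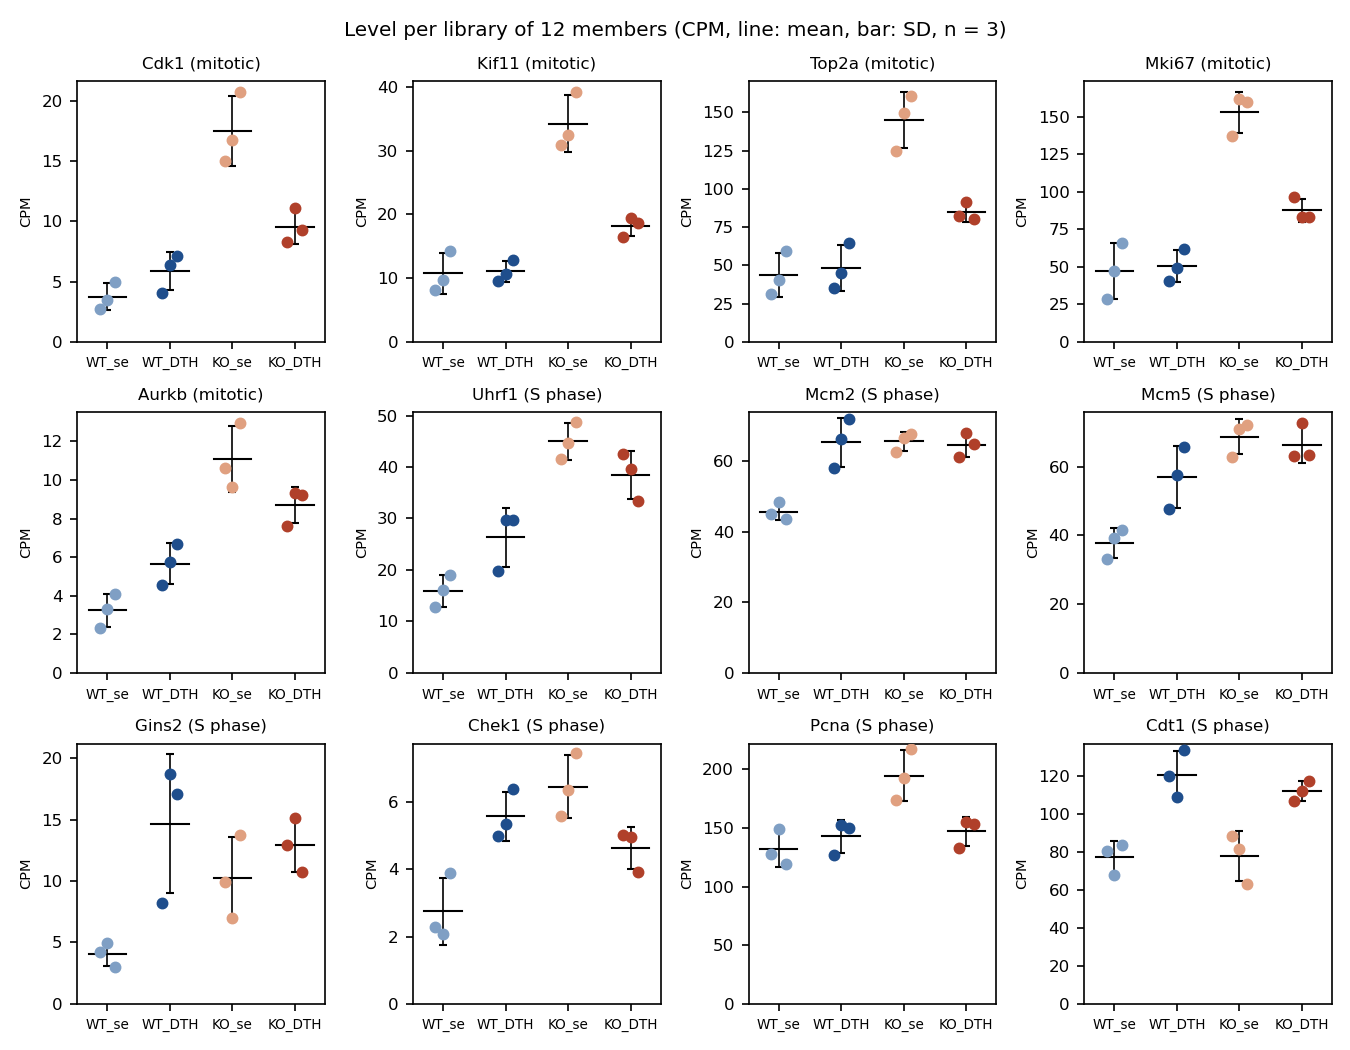
Level in CPM of 12 members in each library (points), with the group mean (line) and SD (bar, n = 3), each panel on its own axis from 0. Mitotic members peak in KO_se with both wild-type groups low, while Mcm2, Mcm5, Gins2 and Chek1 are lowest in WT_se, and Cdt1 is high in both challenged groups.

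Other genes of the same pathways also rose in the sensitized comparison. Of 25 other fork and nucleotide genes 16 rose, among them Rfc2 (0.73), Dut (0.95) and Pole (0.79), and of 21 other origin genes 10 rose and 1 fell, with Cdc45 at 1.42 and Clspn at 1.66. Of 23 other kinetochore genes 13 rose, led by Mad2l1 (1.22 ± 0.14, adjusted p = 0.00130), Spag5 (2.07) and Cdca8 (1.71), and of 16 other spindle and cytokinesis genes 14 rose. Of 14 condensin and cohesin genes 6 rose, among them Ncapg2, Ncapg and Smc2, and of 12 other switch genes of mitosis 7 rose, including Ube2c, which tags mitotic cyclins for destruction (1.78). The Rb and E2F list had 5 of 21 higher, with E2f2, E2f8 and Mybl2 at 1.01, 1.70 and 1.22. Among 8 inhibitors of cyclin-dependent kinases, Cdkn2c rose (1.13) and Cdkn1b, which encodes p27, fell slightly (−0.31). None of 7 antiproliferative genes passed by edgeR (3 had an unadjusted p below 0.05, and 3 were called by DESeq2), and their median was −0.06.

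Of 9 germinal centre B cell genes 3 rose by edgeR, Mybl1 (1.89) and Mef2b (1.56) among them. All 9 were above 0, with a median of 1.68. By edgeR all 9 had an unadjusted p below 0.05, and DESeq2 called 7. The list summed to 56.0 to 84.4 CPM in WT_se and 113 to 146 CPM in KO_se. Of 10 genes of gamma-delta and interleukin-17-producing T cells 9 rose, and the list summed to 119 to 129.5 CPM in WT_se and 354 to 435 CPM in KO_se. The plasma cell list had 4 of 8 higher and 1 lower, at 284 to 360 CPM against 320 to 498. That sum mixes opposite changes. The 5 genes above 0 included Jchain (mean of 34.8 CPM in WT_se and 165 in KO_se) and Mzb1 (20.7 and 51.6). Xbp1 (221 and 121), Derl3 (11.4 and 8.70) and Fkbp11 (8.02 and 3.65) had lower means in KO_se. In WT_DTH and KO_DTH their means were 159 and 191, 4.55 and 8.68, and 3.38 and 8.56 CPM. The part of salivary RNA in these levels was not tested. None of 6 genes of activated T cells passed by edgeR (2 had an unadjusted p below 0.05, and 1 was called by DESeq2), and that list summed to 550 to 759 against 715 to 882 CPM. No gene of these lists was at 0 in all libraries, and the part of these cells in the result was not tested. Genes of erythroid and myeloid precursors, other dividing cells, differed in level. Klf1 and Epor did not exceed 0.294 and 0.643 CPM in any library. Alas2 ran from 15.2 to 177 CPM, and globin RNA was present (Hbb-bs at 569.8 to 6089 CPM). None of 9 erythroid genes tested passed by edgeR between KO_se and WT_se, with a median of −0.73. The 5 myeloid precursor genes summed to 1.44 to 9.54 CPM. All 5 were above 0 in KO_se against WT_se, with a median of 1.76, and none passed by edgeR. By edgeR 2 of these 5 had an unadjusted p below 0.05. The part of these precursors in the result was not tested either.

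**Figure D4:**
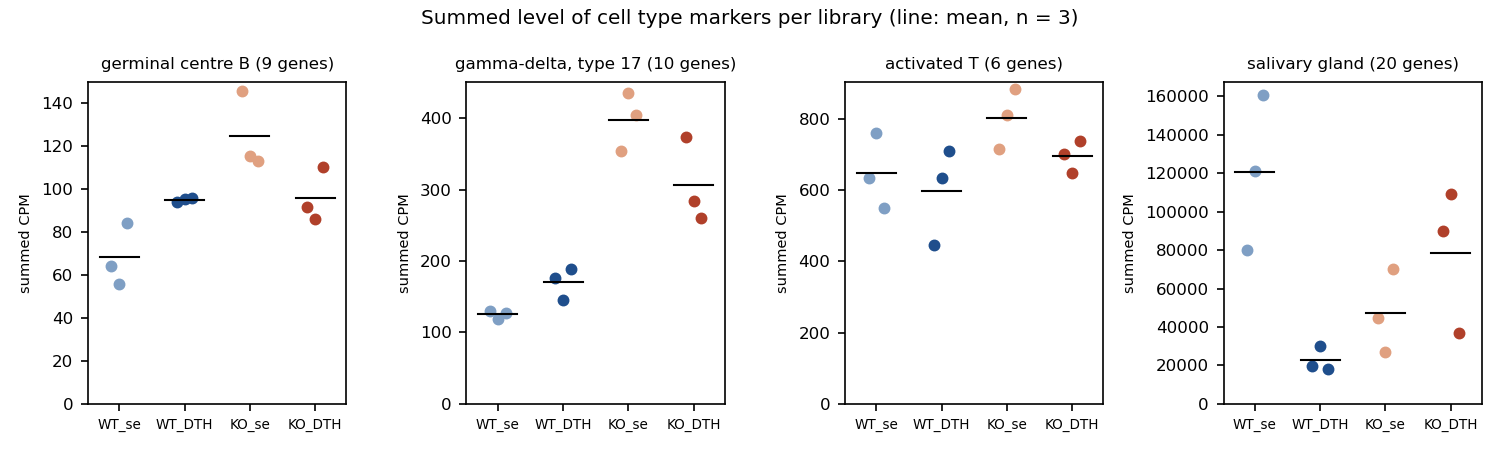
Summed CPM of 4 marker lists in each library (points, with the group mean as a line), each panel on its own axis from 0. Germinal centre B and gamma-delta or type 17 lists are higher in all KO_se than in all WT_se libraries, activated T cell sums overlap between WT_se and KO_se, and the mean salivary sum is lowest in WT_DTH.

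The salivary share was lower in all KO_se than in all WT_se libraries. Leaving out any 1 of the 12 libraries left 30 (without WT_se replicate 1) to 47 members called, with 369 to 1100 of all genes called. With the salivary share as a covariate 31 members passed, where 214 of all 20034 genes were called. Of the 45 members 26, Cdk1, Kif11, Top2a, Mki67 and Uhrf1 among them, passed in all 22 other settings.

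**Figure D5:**
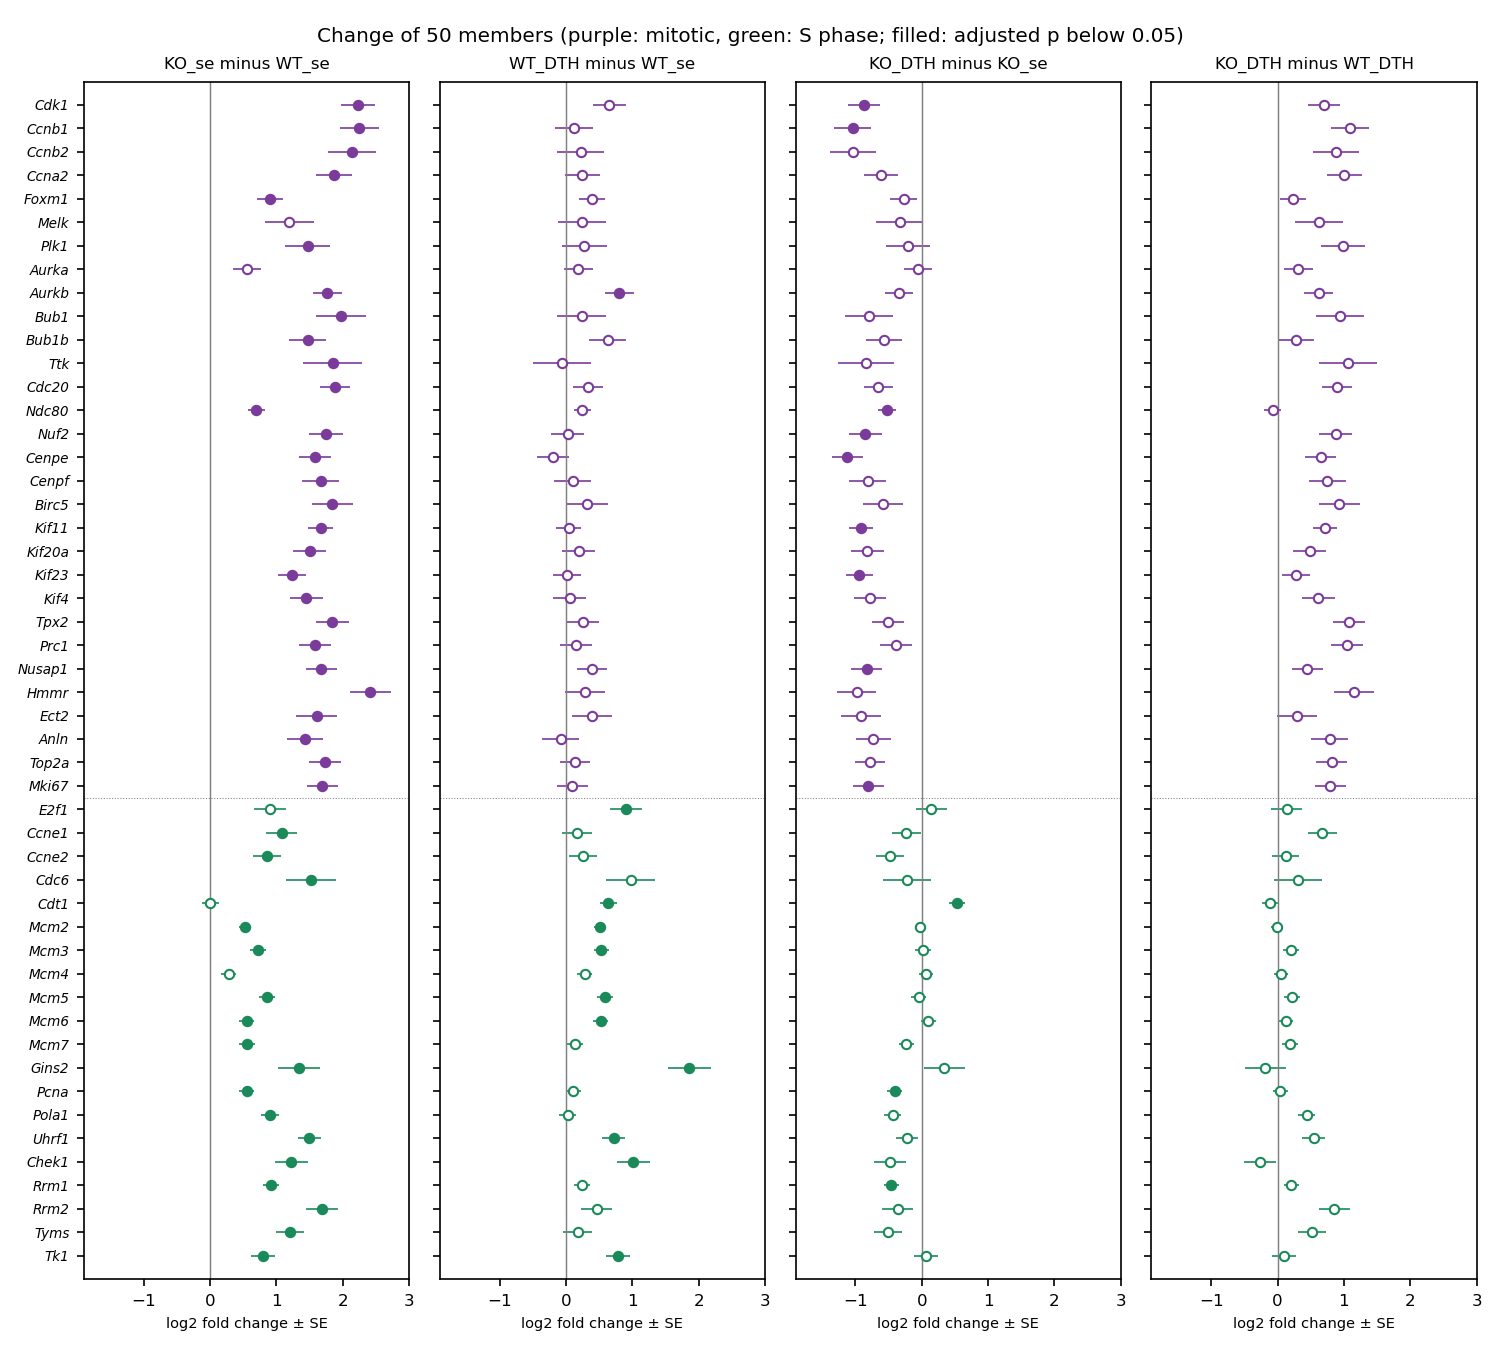
Log2 fold change ± SE (horizontal axis) of the 50 members in 4 comparisons, mitotic members in purple and S phase members in green, filled where the adjusted p is below 0.05. KO_se against WT_se is filled for 45 members, challenge in wild type mainly for S phase members, challenge in the knockout mainly for mitotic members with negative values, and KO_DTH against WT_DTH for none.

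The second comparison asked what challenge changed in wild-type nodes. It shares the WT_se libraries with the first, so values of both are given side by side only. Here S phase genes rose and mitotic genes mostly did not pass: 10 of 20 S phase members and 1 of 30 mitotic members were higher and none lower, where 18.7% of all genes were called (9.77% higher and 8.97% lower). The medians were 0.52 for S phase and 0.23 for mitotic members, on the log2 scale. The mitotic median turned on single libraries: it was −0.0070 without WT_DTH replicate 3, 0.038 without WT_se replicate 1, 0.38 without WT_DTH replicate 1 and 0.44 without WT_se replicate 3, and it was 0.074 with the Xist level as a covariate. WT_DTH lay above every WT_se library in 10 S phase and 2 mitotic members, and below it in none, against 17.6% and 17.9% of all genes. The mitotic share called, 1 of 30, was thus below the background and the S phase share above it.

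Gins2, a subunit of the GINS complex that activates the MCM helicase, changed most. It stood at 4.26, 4.93 and 2.98 CPM in WT_se, 8.23, 18.7 and 17.1 in WT_DTH, 9.94, 7.03 and 13.7 in KO_se and 12.9, 15.1 and 10.7 in KO_DTH. Every WT_DTH library exceeded every WT_se library, and the rise was 1.86 ± 0.32 (adjusted p = 0.00189). Mcm2, Mcm3, Mcm5 and Mcm6 rose together by 0.52 to 0.59. Mcm2 stood at 45.1, 48.5 and 43.6 CPM in WT_se, 58.0, 66.2 and 71.9 in WT_DTH, 62.6, 66.7 and 67.6 in KO_se and 61.2, 68.0 and 64.9 in KO_DTH. WT_se was below every library of the other 3 groups, which overlapped, and the rise on challenge was 0.52 ± 0.09 (adjusted p = 0.00152). Cdt1, which did not pass between the sensitized genotypes, rose on challenge (0.64 ± 0.12, adjusted p = 0.00355).

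Uhrf1 rose by 0.72 ± 0.17 (adjusted p = 0.0115) and Tk1 by 0.78 ± 0.18 (adjusted p = 0.00993). Chek1, the kinase that guards stalled forks, stood at 2.27, 2.09 and 3.90 CPM in WT_se, 4.98, 5.36 and 6.38 in WT_DTH, 5.58, 6.35 and 7.46 in KO_se and 5.01, 4.97 and 3.93 in KO_DTH. Its WT_se libraries lay below all others, and it rose by 1.01 ± 0.25 (adjusted p = 0.0133). E2f1 rose by 0.91 ± 0.24 (adjusted p = 0.0204), and Aurkb, the kinase of the chromosomal passenger complex, was the mitotic member that rose (0.81 ± 0.22, adjusted p = 0.0235). By contrast Kif11 differed by 0.04 ± 0.19 (adjusted p = 0.922) and Cdk1 by 0.66 ± 0.25 (adjusted p = 0.0869), neither of which passed. The Kif11 difference turned to −0.09 with the Xist level as a covariate and to between −0.12 and −0.02 without WT_se replicate 1, WT_se replicate 2 or WT_DTH replicate 3.

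Of 25 other fork and nucleotide genes 9 rose and 1 fell, with Rfc2 at 0.58, Dck at 0.55 and Pold1 at 0.47. None of the 16 other spindle and cytokinesis genes passed by edgeR or DESeq2, and 1 had an unadjusted p below 0.05 by edgeR. Of the 14 condensin and cohesin genes the condensin subunits Smc4 (−0.75) and Ncapd3 (−0.55) fell and Ncaph2 (0.25) rose. Cdkn1a, which encodes the inhibitor p21 that halts the cycle, rose from a mean of 45.6 to 105 CPM (1.21 ± 0.17, adjusted p = 0.000543), while Cdkn1b fell (−0.47). The 9 germinal centre genes summed to 94.0 to 96.0 CPM in WT_DTH, above WT_se, with Bcl6 higher (0.80), Nuggc lower (−1.71) and a list median of −0.35. Their part in the rise of the S phase genes was not tested.

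The salivary share was lower in all WT_DTH than in all WT_se libraries. With it as a covariate 2 members passed, Gins2 and Uhrf1, where 270 of all 20034 genes were called. The medians were then 0.55 for S phase and 0.60 for mitotic members. Gins2 overlaps exons of Gse1 on the opposite strand over 67.3% of its length, and the strand setting of the counting is not given in the sources used here.

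The third comparison asked what challenge changed in the knockout, and it shares the KO_se libraries with the first. There mitotic genes fell: 9 of 30 mitotic members were lower and none higher, and of 20 S phase members Pcna and Rrm1 fell and Cdt1 rose. Of all genes 9.67% were called, 5.81% higher and 3.86% lower. The medians were −0.79 for mitotic and −0.23 for S phase members, the latter −0.046 without KO_DTH replicate 3, −0.13 without KO_se replicate 3 and −0.34 with the salivary share as a covariate. Every KO_DTH library lay below every KO_se library for 26 of 30 mitotic members, the exceptions being Melk, Plk1, Aurka and Birc5, against 14.9% of all genes, and for 6 of 20 S phase members.

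Kif11 fell by 0.91 ± 0.19 (adjusted p = 0.00837), and the kinetochore motor Cenpe by 1.12 ± 0.23 (adjusted p = 0.00935), from 22.6, 23.0 and 22.6 CPM in KO_se to 10.6, 11.0 and 9.81 CPM in KO_DTH. The WT_se libraries of Cenpe ran from 5.93 to 9.88 CPM, so that the highest of them overlapped with KO_DTH. Cdk1 fell by 0.87 ± 0.24 (adjusted p = 0.0390), Ccnb1 by 1.04 ± 0.28 (adjusted p = 0.0341), Ndc80 by 0.52 ± 0.13 (adjusted p = 0.0242) and Nuf2 by 0.85 ± 0.25 (adjusted p = 0.0482). Kif23, the kinesin of the midbody, fell by 0.94 ± 0.21 (adjusted p = 0.0127), Nusap1 by 0.83 ± 0.23 (adjusted p = 0.0381) and Mki67 by 0.80 ± 0.23 (adjusted p = 0.0458). None of the 7 mitotic kinases and checkpoint genes passed by edgeR, with changes from −0.84 to −0.06 (2 had an unadjusted p below 0.05, and 1 was called by DESeq2).

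Among S phase members, the 9 of origin licensing and the helicase had a median of 0.02 and ranged from −0.23 to 0.53, and Cdt1 was the member of that group that passed. Pcna stood at 128, 149 and 119.7 CPM in WT_se, 127, 152 and 149.8 in WT_DTH, 174, 193 and 217 in KO_se and 133, 155 and 154 in KO_DTH. KO_se lay above every other library, and Pcna fell by 0.40 ± 0.11 (adjusted p = 0.0402). Rrm1 fell by 0.46 ± 0.12 (adjusted p = 0.0295). Cdt1 went the other way, rising by 0.53 ± 0.12 (adjusted p = 0.0173), close to its rise in the wild type. These 2 challenge comparisons share no library.

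Of 14 condensin and cohesin genes 5 fell and 9 did not pass. Those that fell included the condensin subunits Smc2 (−0.83 ± 0.14, adjusted p = 0.00250) and Ncapg (−1.14) and the cohesin subunit Stag2 (−0.43). Of 21 other origin genes 5 fell and of 23 other kinetochore genes 3, Mad2l1 (−0.82), Knl1 (−1.21) and Spag5 (−0.95). Cdkn1a went from a mean of 46.5 CPM to 99.7 CPM, a rise of 1.10 ± 0.17 (adjusted p = 0.00153). Of the 9 germinal centre genes 6 fell, Rgs13 by 2.37, Nuggc by 2.49 and Mybl1 by 1.90 on the log2 scale, and the list summed to 86.1 to 110 CPM in KO_DTH. The type 17 list had 3 of 10 lower, Il17a, Il17f and Il23r, and summed to 260 to 374 CPM. Their part in the fall of the mitotic genes was not tested.

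The count of calls moved with single libraries: 3 members passed without KO_se replicate 2, KO_se replicate 3 or KO_DTH replicate 1, 4 without KO_DTH replicate 3 and 6 without KO_DTH replicate 2, and 2 passed without those libraries that had the most salivary RNA of their group. Kif11 passed in all 22 other settings and Cenpe in 21.

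The fourth comparison asked whether the genotypes still differed after challenge. No member passed by edgeR, where 0.599% of all genes were called (0.514% higher and 0.0849% lower) and 2832 had an unadjusted p below 0.05. Of the 50 members 26 had an unadjusted p below 0.05, and the DESeq2 Wald test called 11, 10 of them mitotic. That test called 932 of all 20034 genes. The medians were 0.77 for mitotic and 0.16 for S phase members, and 29 of 30 mitotic members were above 0. The salivary share was higher in all KO_DTH than in all WT_DTH libraries, and with it as a covariate the medians were 0.39 and 0.096. The S phase median was 0.030 without WT_DTH replicate 1 and 0.28 without WT_DTH replicate 3. In 23 of 30 mitotic and 5 of 20 S phase members every KO_DTH library lay above every WT_DTH library, against 10.1% of all genes, and in none did every one lie below, against 8.64%.

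Tpx2, which targets Aurora A to the spindle, differed by 1.08 ± 0.24 (adjusted p = 0.0614) and Prc1, which bundles the central spindle, by 1.04 ± 0.24 (adjusted p = 0.0690). For Cdc20 the difference was 0.90 ± 0.22 (adjusted p = 0.0783), for Kif11 0.71 ± 0.19 (adjusted p = 0.0965) and for Cdk1 0.70 ± 0.24 (adjusted p = 0.200). The groups did not overlap in any of these 5 genes, but none passed. Outside the members, Ube2c was higher in KO_DTH (1.23 ± 0.25, adjusted p = 0.0470). Of the type 17 list 6 of 10 genes were higher in KO_DTH than in WT_DTH, and of the germinal centre list none passed by edgeR or DESeq2 or had an unadjusted p below 0.05, with a median of 0.35. Their part in the mitotic levels was not tested. Leaving out WT_se replicate 3 or WT_se replicate 1, which enter this comparison through the shared estimate of spread, gave 2 and 1 members called.

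The last test asked whether challenge acted differently in the 2 genotypes, as the change on challenge in the knockout minus that in the wild type. All 50 members had a value below 0, with medians of −0.92 for mitotic and −0.66 for S phase members, against −0.01 over all genes. Because KO_se and WT_se enter this difference with the signs opposite to the first comparison, the 2 are not independent. Only Cdk1 (−1.53 ± 0.35, adjusted p = 0.0435), Mcm2 (−0.54 ± 0.12, adjusted p = 0.0434) and Chek1 (−1.49 ± 0.35, adjusted p = 0.0476) passed, where 2.11% of all genes were called, 1.67% higher and 0.439% lower. The log2 differences on challenge in wild type and knockout were 0.66 and −0.87 for Cdk1, 0.52 and −0.02 for Mcm2, and 1.01 and −0.48 for Chek1, of which the Cdk1 value in the wild type and the Mcm2 and Chek1 values in the knockout did not pass on their own. Kif11, at −0.95 ± 0.26 (adjusted p = 0.0798), Rrm1, at −0.70 ± 0.17 (adjusted p = 0.0507), and Uhrf1, at −0.95 ± 0.24 (adjusted p = 0.0626), did not pass. Of the pathway genes Mad2l1 (−0.87), Ncapg2 (−0.98) and Fbxo5, an inhibitor of the anaphase-promoting complex (−0.87), passed.

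The 3 calls moved with single libraries. When 1 library was left out, no member passed in 9 of 12 fits (without WT_se replicate 1 or 2, WT_DTH replicate 2 or 3, any KO_se replicate, or KO_DTH replicate 1 or 2) and 7 passed without WT_DTH replicate 1, and with the salivary share as a covariate none passed by edgeR, with a mitotic median of −1.51. By edgeR 39 of the 50 members had an unadjusted p below 0.05, against 3215 of all 20034 genes. DESeq2 called 16 members and 1240 of all genes. With the salivary covariate 0 of all genes passed by edgeR.

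Scaled by the length of their exons, the members covered a wide range of levels. Pcna was highest, at a mean of 64.3 CPM per kilobase over the 12 libraries, before Cdt1 (30.9), Mcm4 (21.7), Mcm3 (18.6) and Mcm6 (18.1), all of S phase. The lowest were the mitotic members Cenpf (0.503), Ttk (0.473) and Anln (0.343). Exon overlap with a gene on the other strand touched 11 members, and of the 39 without it 34 rose in KO_se against WT_se. Reads from pseudogenes named after Ccnb1, Ccnb2, Pcna, Kif4 and Tyms could also be shared with their parent genes. Over the 12 libraries those of Ccnb1, Ccnb2 and Pcna held 295, 565 and 875 counts. The parent genes held 4494, 4996 and 85684. No counts were found for the pseudogenes of Kif4 and Tyms.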

How the data were processed

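Estimated counts per gene in 12 libraries, whole numbers as deposited by the authors, were used unrounded. The submitters' processing notes name fastp 0.23.2, HISAT2 2.2.1, StringTie 2.2.1 and GRCm39, and the labels give RNeasy extraction and NEBNext Ultra II Directional libraries of total RNA. Symbols came from an annotation on GRCm38, which matched 51948 of 56941 gene IDs (the rest held 0.326 to 0.543% of counts), and 277 of 278 list entries matched.

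edgeR 4.0.16 (R 4.3.3; filterByExpr with a minimum count of 10, TMM scaling, quasi-likelihood test) was fitted once to all 12 libraries with a mean per group (8 residual degrees of freedom). The 5 contrasts had their two-sided p-values adjusted over the 20034 genes kept (Benjamini-Hochberg, threshold 0.05). The test was checked on simulated data. CPM use TMM-scaled library sizes, and log2 CPM a prior count of 2. DESeq2 1.42.0 was an alternative. Intervals of counting error were not given, as spread between libraries was larger (chi-squared per degree of freedom within groups 36.8 to 293).

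Values per library are given for the members with the smallest and the largest p of each role group in KO_se against WT_se, all MCM subunits, Kif11 and Cdk1, and up to 6 members passing on challenge in wild type or in the interaction. Cenpe and Pcna were added after their values were seen. Up to 3 genes with the smallest adjusted p were named per pathway list and comparison. Alternatives were other scaling, filters, prior count, medians, the DESeq2 test, a replicate block, salivary and Xist covariates, fits of the compared groups alone and leaving out libraries. The members and lists were chosen with earlier results of these data known. Some genes of the marker lists are not reported here by name.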

Additional observations from a re-analysis of the deposited data

Results flagged for a closer look

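For 3 members the change on challenge differed between the genotypes by the interaction test (edgeR quasi-likelihood, adjusted over all genes). The knockout change minus the wild-type change was −1.53 for Cdk1, the kinase of mitotic entry (adjusted p = 0.0435), −0.54 for the helicase subunit Mcm2 (adjusted p = 0.0434) and −1.49 for the checkpoint kinase Chek1 (adjusted p = 0.0476), on the log2 scale. Of 12 fits without 1 library, Cdk1 passed in 2 (adjusted p 0.0427 to 0.102), Mcm2 in 2 (0.0322 to 0.114) and Chek1 in 1 (0.0483 to 0.110), and the values kept their sign in all of them (Cdk1 −1.79 to −1.36, Mcm2 −0.66 to −0.51 and Chek1 −1.83 to −1.33).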

How the results depend on the processing

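Members called in KO_se against WT_se (45) stayed within 1.5 times that count in all 22 other settings, from 30 to 47. For challenge in wild type (11) the count was 2 with the salivary share as a covariate and 8 to 16 without 1 library. For challenge in the knockout (12) it was 21 by DESeq2, 21 with the Xist covariate, 21 with only the libraries compared, 7 with no filter, 2 without the most salivary libraries and 3 to 16 without 1 library. For KO_DTH against WT_DTH (0) it was 11 by DESeq2, 4 with the Xist covariate, 1 with only the libraries compared and 0 to 2 without 1 library. For the interaction (3) it was 16 by DESeq2, 7 with the Xist covariate, 5 with a mean of at least 50 counts, 5 with salivary, mitochondrial, globin and immunoglobulin genes left out, 1 with no filter, 0 with the salivary covariate, 0 without the most salivary library of each group and 0 to 7 without 1 library. The cause of these shifts was not tested. Of all 20034 genes, in the same order, DESeq2 called 2301, 4557, 2984, 932 and 1240. By edgeR with the salivary covariate, 214, 270, 1331, 7 and 0 of all genes were called.

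The S phase minus mitotic balance changed from −0.76 to −0.48 for KO_se against WT_se and from 0.24 to 0.068 for the interaction when medians over members replaced means. Without 1 library it ran from −0.90 to −0.65 and from 0.13 to 0.38. The Cdt1 difference between the sensitized genotypes turned to −0.0163 with DESeq2 size factors, −0.0162 by DESeq2, −0.0139 with a mean of at least 50 counts, −0.188 with the salivary covariate, and ran from −0.0943 to 0.138 without 1 library. The Kif11 change on challenge in wild type turned to −0.0899 with the Xist covariate and ran from −0.117 to 0.308 without 1 library. Mcm2 on challenge in the knockout ran from −0.0589 to 0.0210 without 1 library.

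Whether replicate numbers pair the libraries was not settled. Deviations of the 18 same-numbered pairs correlated weakly, at −0.098 to 0.14, with 1 above 0.1, against −0.080 to 0.12 for the other pairs. However, 8 of 12 libraries correlated best with a library of their own number. With the replicate number as a block the counts, in the order of the comparisons above, were 46, 13, 17, 0 and 2.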
